A study of Mus musculus with 48 samples.

Results

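The ligands and secreted modulators of the bone morphogenetic protein (BMP) system were followed through 4 hindlimb muscles in adults and late embryos (E18.5) of the inbred mouse strain FVB/NJ, all of them male. The 10 genes are the ligands Bmp2, Bmp4, Bmp5 and Bmp6 and the modulators Bmper, Chrd, Nbl1, Smoc1, Nog and Grem1. All 10 were found among the 27179 genes of the count table. They were chosen by their E18.5 counts, with results of these data known, because Bmper, Chrd, Nbl1 and Smoc1 parted the E18.5 muscles, so their E18.5 muscle differences are given as a description with no test. The 8 groups were adult soleus, gastrocnemius, vastus intermedius and vastus lateralis and the same muscles at E18.5, each with 6 libraries from 6 animals for which the labels name no treatment, transgene or mutation. Soleus (shank) and vastus intermedius (thigh) stand for slow-biased muscle, which is rich in slow fibres. Gastrocnemius (shank) and vastus lateralis (thigh) stand for fast-biased muscle. The adult age is uncertain, since the study's design text gives postnatal day 56 and the growth protocol gives 3 to 4 months.

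BMPs are secreted dimers of the TGF-beta superfamily that assemble type I and type II receptor kinases, which phosphorylate Smad1, Smad5 and Smad9 and so turn on target genes such as Id1. Chordin (Chrd), noggin (Nog), gremlin 1 (Grem1) and the DAN protein (Nbl1) bind ligands outside the cell and keep them from their receptors. BMPER binds BMPs and chordin and can damp or promote signalling, and SMOC1, a SPARC-related matrix protein, inhibits BMP signalling in frog embryos and mouse cells. In developing limb muscle BMP signals help to keep muscle progenitors dividing, and in adult muscle they act to maintain fibre mass.

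Total counts ranged from 14.9 to 32.4 M per library (median 22.8 M). Levels are CPM (counts relative to the library total) scaled by the trimmed mean of M-values (TMM), and the upper limit behind a level of 0, set at 3 counts, lay between 0.0647 and 0.377 CPM on this scale. Replicates of a group are separate animals, and in the stage fits adjusted p-values measure the spread between animals. In the muscle fits of a stage each animal gave a library of each muscle, and the main fit had no term for the animal. There adjusted p-values measure the spread between libraries of a muscle and ignore the pairing. Fits with a term for the animal (the replicate block) are given where they differ. The labelled tissue was present in every library: 5 muscle fibre genes (Acta1, Ckm, Ttn, Mylpf, Des) summed to at least 10260 CPM. 1 library labelled adult vastus intermedius, from collection B (a collection is the set of libraries of a stage that share a tag in the count table, taken as 1 animal), was left out, because it held 8916 CPM of the embryonic myosin Myh3, against 6.18 to 22.8 CPM in the other 5. That left 47 libraries and 5 in adult vastus intermedius. Among the genes studied here that library was above the other 5 for Bmper, Chrd, Smoc1, Grem1, Bmp4 and Bmp5, and results with it are given where they differ.

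RefSeq promoter records (assembly GRCm38.p6) matched 7 of the 10 genes. The 250 bases before the recorded start are shown for Bmper, Chrd and Bmp4, because these genes fell with age in all 4 muscles. Capitals mark the GC-rich motif GGCGCC, bound by Smads. CAGCTG, an E-box that myogenic factors bind, and TATAAA were also searched. Both strands were searched, GGCGCC and CAGCTG read the same on both, and the 3 motifs were counted apart from each other.
Bmper, chr9:23222826-23223075, plus strand: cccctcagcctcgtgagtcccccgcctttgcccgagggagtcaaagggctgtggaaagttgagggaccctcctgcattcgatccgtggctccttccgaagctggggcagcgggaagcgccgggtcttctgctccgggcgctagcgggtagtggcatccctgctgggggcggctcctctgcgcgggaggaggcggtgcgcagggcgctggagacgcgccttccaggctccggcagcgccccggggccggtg
Chrd, chr16:20732877-20733126, plus strand: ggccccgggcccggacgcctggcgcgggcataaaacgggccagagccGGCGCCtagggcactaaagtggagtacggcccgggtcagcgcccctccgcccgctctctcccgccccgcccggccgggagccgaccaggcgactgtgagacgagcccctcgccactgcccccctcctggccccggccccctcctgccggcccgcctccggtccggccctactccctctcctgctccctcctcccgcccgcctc
Bmp4, chr14:46390670-46390919, minus strand: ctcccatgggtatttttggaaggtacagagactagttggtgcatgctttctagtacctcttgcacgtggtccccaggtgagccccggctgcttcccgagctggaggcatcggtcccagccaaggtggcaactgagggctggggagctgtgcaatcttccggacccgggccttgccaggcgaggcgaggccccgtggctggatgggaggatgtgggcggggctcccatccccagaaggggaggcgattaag
The Chrd window held 1 GGCGCC, a motif found in 9.54% of 27025 promoter windows of this length, and the Bmper and Bmp4 windows held none of the 3 motifs (CAGCTG was in 12.8% and TATAAA in 13% of windows). The windows were rich in G and C, with 71.6% in Bmper, 78% in Chrd and 63.2% in Bmp4, against a median of 52% over all windows. They held 24 CG steps in Bmper, 28 in Chrd and 11 in Bmp4, against a median of 6. The Chrd window lies inside the span RefSeq gives for the gene (chr16:20731425-20742384), which starts further upstream.

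At E18.5 Bmper set the gastrocnemius apart. Its lowest, median and highest levels were 13.0, 18.1 and 20.3 CPM in soleus, against 46.7, 52.9 and 53.1 CPM in gastrocnemius. In the thigh they were 5.33, 11.3 and 17.01 CPM in vastus intermedius, against 14.3, 26.6 and 34.8 CPM in vastus lateralis. The gastrocnemius libraries lay above every other E18.5 library, whereas the vastus muscles overlapped. The fold change (log2 ± SE) came to -1.57 ± 0.23 for soleus over gastrocnemius and -1.28 ± 0.23 for vastus intermedius over vastus lateralis. Within animals, Bmper was lower in the slow-biased muscle in 6 of 6 shank pairs and 6 of 6 thigh pairs. The mean of the vastus muscles was lower than that of the shank muscles in 6 of 6 embryos, with a log2 fold change of -0.88 ± 0.16. Fibre and tendon markers moved with the thigh at E18.5 (24.8% of all genes passed between thigh and shank). All 5 fibre markers were higher in the thigh in the edgeR fit (median log2 fold change 0.82) and summed to 21710 to 35280 CPM in vastus intermedius and 24190 to 38870 CPM in vastus lateralis, against 10260 to 27200 CPM in soleus and 10740 to 20410 CPM in gastrocnemius. Of 5 tendon markers 3 were lower in the thigh. Of 5 satellite cell markers 1 was higher and 2 were lower. Their part in the Bmper difference was not tested.

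Smoc1 ran the same way, with the larger difference in the shank. It had 12.6, 22.8 and 29.2 CPM (lowest, median, highest) in soleus, against 38.4, 46.6 and 58.9 CPM in gastrocnemius. In the thigh it had 24.9, 39.4 and 46.8 CPM in vastus intermedius, against 36.3, 47.8 and 55.8 CPM in vastus lateralis. Soleus and gastrocnemius did not overlap and the vastus muscles did, with log2 fold changes of -1.09 ± 0.18 and -0.35 ± 0.17. Within animals Smoc1 was lower in the slow-biased muscle in 6 of 6 shank pairs and 6 of 6 thigh pairs.

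Chrd and Nbl1 were higher in soleus. Chrd had 19.6, 23.2 and 24.7 CPM in soleus, against 11.5, 16.0 and 17.7 CPM in gastrocnemius, and 18.3, 20.4 and 21.02 CPM in vastus intermedius, against 12.6, 16.1 and 18.4 CPM in vastus lateralis. Its log2 fold change was 0.56 ± 0.10 for the shank pair and 0.34 ± 0.10 for the thigh pair, and the slow-biased muscle was higher in 6 of 6 and 5 of 6 embryos. Nbl1 had 47.1, 51.0 and 78.3 CPM in soleus, against 25.2, 28.2 and 43.3 CPM in gastrocnemius. It had 25.7, 30.0 and 38.1 CPM in vastus intermedius, against 24, 38.2 and 40.4 CPM in vastus lateralis. Every soleus library thus lay above every library of the other 3 muscles for Nbl1, and the log2 fold change was 0.86 ± 0.15 for the shank pair and -0.17 ± 0.15 for the thigh pair.

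**Figure D1:**
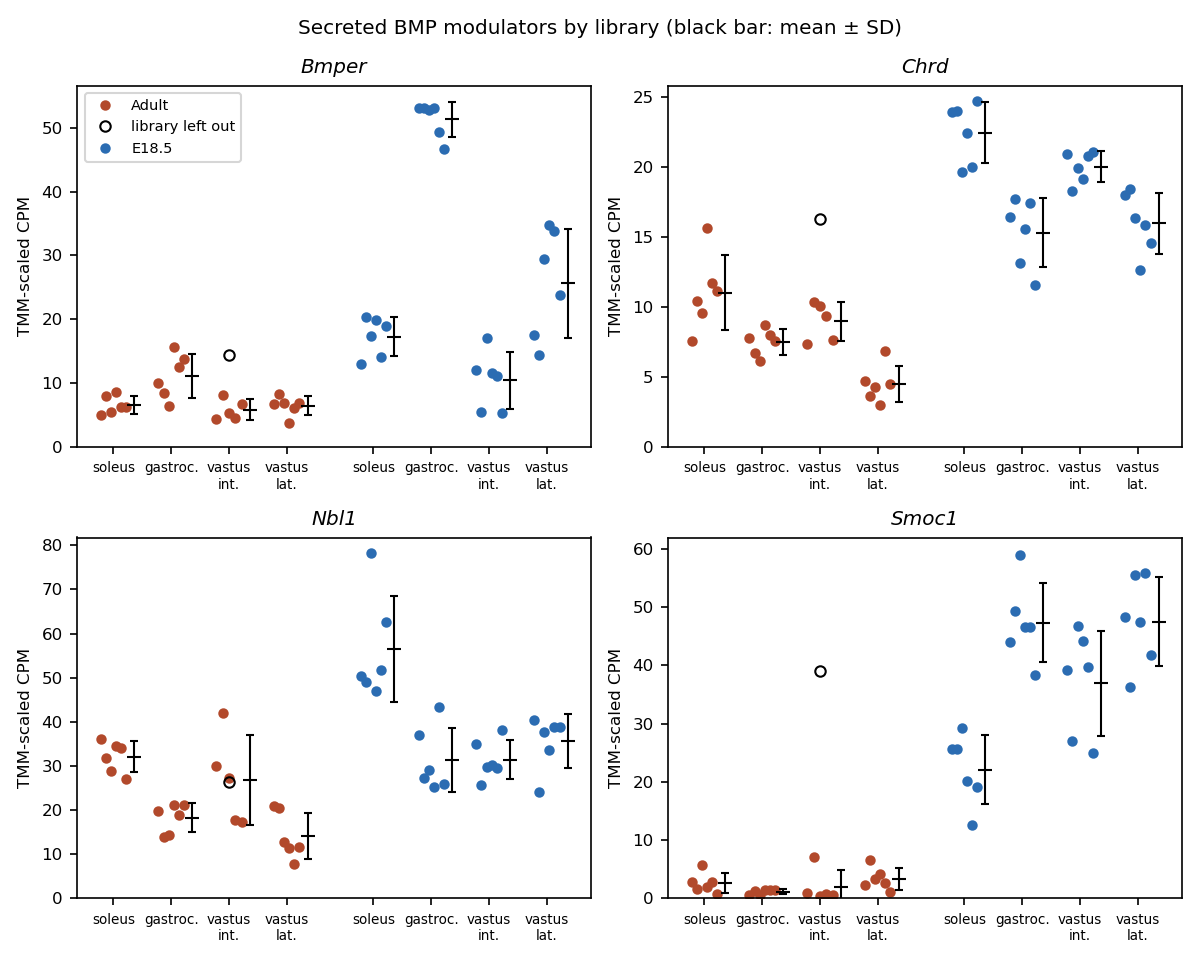
TMM-scaled CPM of 4 secreted modulators in every library, adult groups (red) left of E18.5 groups (blue), with mean ± SD beside each group and the library left out as an open circle. At E18.5 the Bmper levels of gastrocnemius (46.7 to 53.1 CPM) lie above those of all other muscles, and adult Smoc1 lies far below E18.5 Smoc1.

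The ligands parted the E18.5 muscles less. Bmp4 had 26.4, 27.8 and 33.7 CPM in soleus, against 16.3, 21.9 and 25.4 CPM in gastrocnemius, with no overlap and a log2 fold change of 0.45 ± 0.12. Bmp5 had a wide spread, with 3.48, 8.18 and 22.6 CPM in soleus, against 2.82, 5.80 and 8.80 CPM in gastrocnemius, and 6.44, 7.22 and 12.6 CPM in vastus intermedius, against 6.62, 17.8 and 27.5 CPM in vastus lateralis. It was higher in soleus than in gastrocnemius in 5 of 6 embryos, and lower in vastus intermedius than in vastus lateralis in 6 of 6, so the shank and thigh pairs differed in direction. All ranges of Bmp5 overlapped within these pairs. Bmp2 lay between 1.45 and 3.19 CPM and Bmp6 between 3.66 and 13.1 CPM over the 24 libraries, and their groups overlapped in both pairs.

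Between soleus and gastrocnemius 5 of the 10 genes did not overlap (Bmper and Smoc1 lower, Chrd, Nbl1 and Bmp4 higher in soleus), where 1.05% of all genes tested did not. Between vastus intermedius and vastus lateralis no range of the 10 genes was separate, where 0.203% of all genes were. The first count repeats what the genes were chosen for. Bone markers moved with the slow-biased muscles at E18.5: 2 of 4 tested were higher in the edgeR fit, where 0.368% of all genes passed. The 5 listed markers summed to 1.48 to 16.7 CPM in soleus and 1.57 to 31.2 CPM in vastus intermedius. They summed to 0.812 to 2.18 CPM in gastrocnemius and 0.843 to 2.90 CPM in vastus lateralis, with no marker at 0 in a whole group. Tendon markers summed to 335 to 806 CPM in soleus, against 190 to 509 CPM in gastrocnemius. In the thigh they summed to 205 to 493 CPM in vastus intermedius, against 146 to 488 CPM in vastus lateralis. Of the 5 tendon markers 0 passed in the edgeR fit, over both pairs or in either pair. The bone and tendon markers are given as a description. Their part in the differences was not tested.

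The genes whose log2 CPM followed these 4 modulators most closely over the 24 E18.5 libraries are given with Pearson's r as a description, since libraries of a collection share an animal. For Bmper they were Eps8 (r = 0.877), Rhou (r = 0.732) and Has2 (r = 0.730), for Chrd Lrig3 (r = 0.848), Fxyd6 (r = 0.738) and Foxp2 (r = 0.728). For Nbl1 they were Rassf2 (r = 0.862), Ptgis (r = 0.816) and Boc (r = 0.777), and for Smoc1 Agtr1a (r = 0.923), Cpe (r = 0.882) and Cldn15 (r = 0.866). Over the 23 adult libraries the value was -0.0796 for Bmper with Eps8. For Chrd it was 0.392 with Lrig3 and 0.785 with Fxyd6. For Nbl1 it was 0.697 with Rassf2, 0.359 with Ptgis and 0.735 with Boc. For Smoc1 it was 0.405 with Agtr1a, 0.138 with Cpe and 0.0205 with Cldn15. The Bmper partners of E18.5 had negative values in adults, and Foxp2 had -0.539 with Chrd.

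Adult muscles were compared to ask whether slow-biased and fast-biased muscles still differ in these genes. Chrd, Nbl1, Bmp2, Bmp4 and Bmp6 were higher and Bmper was lower in the slow-biased muscles, which made 6 of the 9 genes tested. Among all genes tested 66.0% passed (35.9% higher and 30.1% lower), so this share is at the background. Within the shank 4 of 9 passed (53.5% of all genes) and within the thigh 6 of 9 (52.2%). Grem1 was too low for the test.

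Bmp6, a ligand closely related to Bmp5, had the smallest adjusted p of the ligands. It had 10.5, 13.4 and 18.9 CPM (lowest, median, highest) in adult soleus, against 8.28, 9.64 and 13.2 CPM in gastrocnemius. In adult vastus intermedius the 5 libraries had 12.1, 13.6, 15.1, 17.2 and 17.8 CPM, against 4.77, 7.29 and 8.58 CPM in vastus lateralis. The vastus muscles did not overlap, and the shank muscles did. The slow-biased muscles were higher by a log2 fold change of 0.83 ± 0.12 (edgeR, adjusted p = 1.64e-06), in 5 of 5 animals with all 4 libraries. In the shank alone the difference was 0.51 ± 0.16 (edgeR, adjusted p = 0.0106), and it missed the threshold without collection D (0.37, adjusted p = 0.0637).

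Nbl1 was again higher in soleus than in gastrocnemius. It had 27.2, 33 and 36.1 CPM in adult soleus, against 13.98, 19.3 and 21.3 CPM in gastrocnemius. The 5 vastus intermedius libraries had 17.2, 17.8, 27.2, 30.0 and 42.1 CPM, against 7.83, 12.2 and 20.8 CPM in vastus lateralis. Soleus and gastrocnemius did not overlap, and the slow-biased muscles were higher by 0.90 ± 0.16 (log2 ± SE, edgeR, adjusted p = 2.27e-05).

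Chrd also stood higher in the slow-biased muscles. It had 7.57, 10.8 and 15.6 CPM in soleus, against 6.14, 7.68 and 8.71 CPM in gastrocnemius, and 7.35, 7.64, 9.33, 10.1 and 10.4 CPM in vastus intermedius, against 3.02, 4.39 and 6.81 CPM in vastus lateralis. Only the vastus muscles did not overlap, and the log2 fold change over both pairs was 0.80 ± 0.12 (edgeR, adjusted p = 5.28e-06). Chrd shares 239 of 6258 exonic bases with Thpo on the opposite strand in the GENCODE annotation, and whether reads were counted by strand is unknown here. The counted Chrd model had 3275 bases, and how many of these are shared was not worked out.

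Bmper was lower in soleus than in gastrocnemius. It had 5.01, 6.23 and 8.58 CPM in adult soleus, against 6.46, 11.3 and 15.7 CPM in gastrocnemius, which overlapped. Soleus was lower in 6 of 6 animals, by -0.73 ± 0.21 (log2 ± SE, edgeR, adjusted p = 0.00492). In the thigh the value was -0.12 ± 0.22 (adjusted p = 0.665, edgeR), and it was 0.16 when libraries were scaled by total counts alone and 0.20 with the left-out library kept. The fold over both pairs was -0.43 ± 0.15 (edgeR, adjusted p = 0.0171). It missed the threshold with total counts alone (-0.10), with the left-out library kept (-0.27) and without collection A (-0.36), E (-0.37) or F (-0.40); the shank value with total counts alone was -0.35 (adjusted p = 0.193).

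Bmp2 and Bmp4 were higher in the slow-biased muscles by 0.76 ± 0.20 (adjusted p = 0.00215) and 0.43 ± 0.13 (adjusted p = 0.00563) in edgeR. Both passed in the thigh, with 0.94 ± 0.30 for Bmp2 and 0.60 ± 0.19 for Bmp4. Neither passed there without collection C (0.68, adjusted p = 0.101 for Bmp2, and 0.44, adjusted p = 0.0951 for Bmp4). Their shank values were 0.57 ± 0.28 and 0.26 ± 0.18 and did not pass (edgeR, adjusted p = 0.0846 and 0.217), but both passed there with total counts alone (0.94, adjusted p = 0.00624 for Bmp2, and 0.65, adjusted p = 0.00503 for Bmp4).

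Bmp5 took opposite signs in the shank and the thigh, as at E18.5. It had 4.72, 6.395 and 8.77 CPM in soleus, against 3.28, 4.56 and 8.69 CPM in gastrocnemius. It had 3.41, 4.45, 5.03, 5.52 and 8.38 CPM in vastus intermedius, against 7.74, 8.23 and 10.5 CPM in vastus lateralis. The vastus muscles overlapped in 1 library, that of collection C. Bmp5 was lower in vastus intermedius by -0.68 ± 0.24 (edgeR, adjusted p = 0.0212), which missed the threshold without collection D (-0.64) or E (-0.59), with the left-out library kept (-0.41) and with total counts alone (-0.39). The shank value was 0.36 ± 0.23 (edgeR, adjusted p = 0.194), and it passed without collection A (0.56, adjusted p = 0.0497) and with total counts alone (0.75, adjusted p = 0.00915). The difference of the pairs was 1.04 ± 0.33 and did not pass in the edgeR fit (adjusted p = 0.0559), but it passed in DESeq2 (adjusted p = 0.0259), with the replicate block (1.08, adjusted p = 0.0395) and without collection A (1.15) or C (1.35). In the edgeR fit 0 of 9 genes passed this test where 8.10% of all genes did, 3 had an unadjusted p under 0.05, and DESeq2 called 1. In the GENCODE annotation Bmp5 shares 1878 of 4025 exonic bases with the antisense gene Gm26903. Reads from shared bases cannot be told apart without strand. The counted Bmp5 model had 2528 bases, and how many of these are shared was not worked out.

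Smoc1 was low in adults and uneven. It had 0.678, 2.34 and 5.77 CPM in soleus, against 0.565, 1.30 and 1.45 CPM in gastrocnemius, and 0.438, 0.558, 0.802, 0.958 and 7.17 CPM in vastus intermedius, against 1.08, 2.98 and 6.65 CPM in vastus lateralis. The library of 7.17 CPM was that of collection C. The log2 fold change over both pairs was 0.26 ± 0.42 (edgeR, adjusted p = 0.594), -0.08 with the replicate block and -0.77 without collection C (adjusted p = 0.0475). In the shank it was 1.22 ± 0.60 (edgeR, adjusted p = 0.0892), which passed in DESeq2 (adjusted p = 0.0499), without collection F (1.49, adjusted p = 0.0467) and with total counts alone (1.57, adjusted p = 0.0267). In the thigh it was -0.69 ± 0.60 (edgeR, adjusted p = 0.348), -2.24 with an adjusted p of 0.00106 without collection C, and 1.35 with the left-out library kept. The difference of the pairs was 1.91 ± 0.85 (edgeR, adjusted p = 0.193) and 2.94 with an adjusted p of 0.00872 without that collection.

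Between adult thigh and shank, Bmper, Chrd and Bmp4 were lower in the thigh, 3 of the 9 genes tested, against 19.1% of all genes tested (7.55% lower). The log2 fold changes were -0.47 ± 0.15 for Bmper (edgeR, adjusted p = 0.0318), -0.50 ± 0.13 for Chrd (adjusted p = 0.006) and -0.45 ± 0.13 for Bmp4 (adjusted p = 0.0156). Chrd and Bmp4 were lower in the thigh in 5 of 5 animals and Bmper in 4 of 5. None of the 3 passed with the left-out library kept (-0.30, -0.41 and -0.21). Bmper also missed the threshold with the replicate block (-0.45, adjusted p = 0.0544) and without collection A (-0.48), D (-0.30), E (-0.41) or F (-0.49), and Bmp4 without collection D (-0.42) or E (-0.44). With total counts alone Bmp6 passed as well (-0.38, adjusted p = 0.0443). Tendon markers were lower in the thigh in 3 of 5 and summed to 41.5 to 814 CPM in vastus intermedius and 14 to 178 CPM in vastus lateralis, against 44.2 to 552 CPM in soleus and 200 to 552 CPM in gastrocnemius. No tendon marker was at 0 in a whole group, and their part in these 3 differences was not tested.

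Markers of several other cell types moved with the adult slow-biased muscles. Among all genes tested 35.9% were higher and 30.1% lower there, and the lists are short. All 5 endothelial, all 5 pericyte and smooth muscle and all 5 leukocyte markers were higher, and all 5 muscle fibre markers were lower in the edgeR fit; with total counts alone 3 of the 5 fibre markers were lower. Of 5 Schwann cell markers 4 were higher, of 5 satellite cell markers 4 higher and 1 lower, of 5 tendon markers 3 higher, of 3 cartilage markers tested 2 higher and 1 lower, of 5 fibroblast markers 2 higher and of 2 bone markers tested 1 higher, whereas 0 of 5 adipocyte markers passed. Endothelial markers (Pecam1, Cdh5, Kdr, Emcn, Tek) summed to 504 to 598 CPM in soleus and 537 to 724 CPM in vastus intermedius, against 328 to 467 CPM in gastrocnemius and 242 to 394 CPM in vastus lateralis. Pericyte and smooth muscle markers summed to 340 to 462 CPM and 329 to 600.0 CPM in soleus and vastus intermedius, against 187 to 303 CPM and 123 to 352 CPM in gastrocnemius and vastus lateralis. Leukocyte markers summed to 111 to 173 CPM in soleus and 90.7 to 137 CPM in vastus intermedius, against 40.5 to 107 CPM in gastrocnemius and 29.5 to 91.1 CPM in vastus lateralis. Fibre markers summed to 74810 to 95330 CPM in soleus and 85850 to 105700 CPM in vastus intermedius, against 127900 to 165600 CPM in gastrocnemius and 147100 to 234500 CPM in vastus lateralis. Schwann cell markers summed to 56.8 to 401 CPM and 60.4 to 189 CPM in soleus and vastus intermedius, against 6.22 to 66.4 CPM and 26.01 to 94.7 CPM in gastrocnemius and vastus lateralis. No marker of these 5 lists was at 0 in a whole group. Their part in the differences of the BMP genes was not tested, and in bulk muscle fewer cells of a type and less RNA per cell cannot be told apart.

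**Figure D2:**
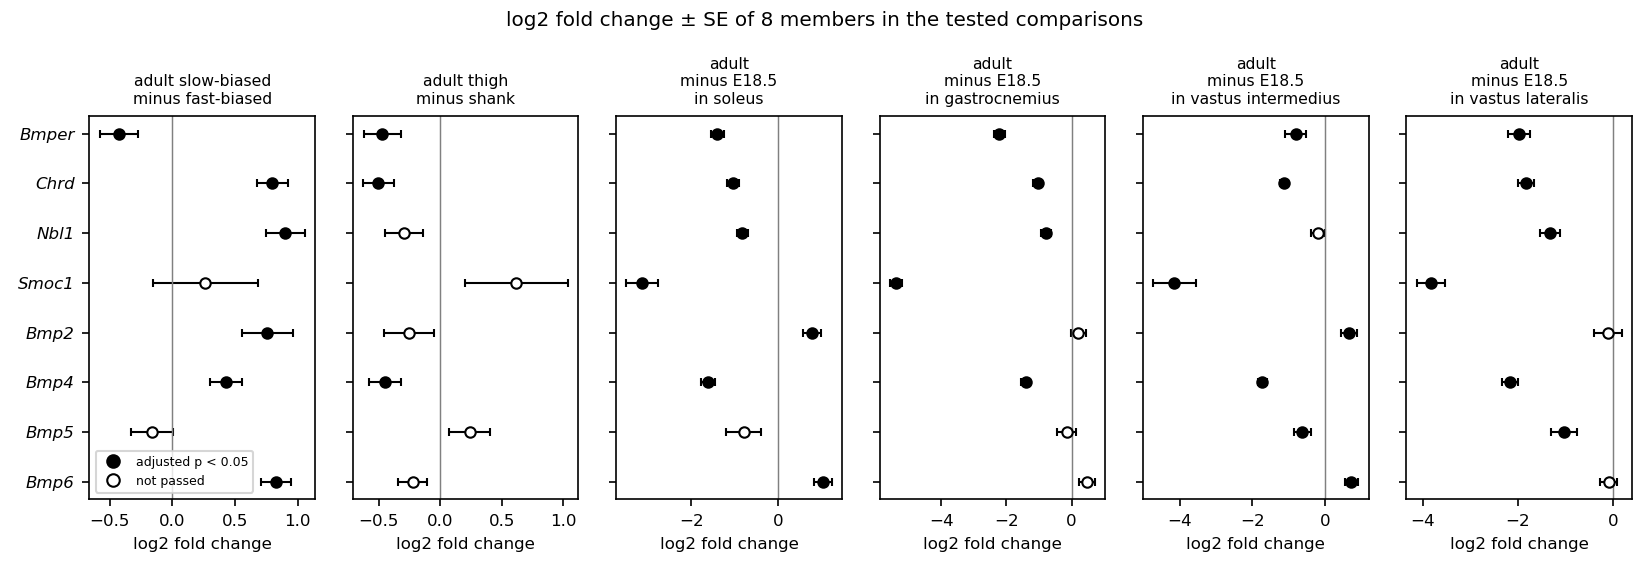
Log2 fold change ± SE of 8 of the 10 genes in the 2 adult contrasts and the 4 stage contrasts, filled where the adjusted p was under 0.05 (edgeR). Bmper, Chrd, Smoc1 and Bmp4 lie left of 0 in all 4 stage panels, and Bmp6 lies right of 0 in soleus and vastus intermedius.

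Bmper, Chrd, Smoc1 and Bmp4 were lower in adults than at E18.5 in all 4 muscles, Nbl1 in 3 and Bmp5 in both vastus muscles, while Bmp2 and Bmp6 were higher in soleus and vastus intermedius under TMM scaling. Adult and E18.5 libraries of a muscle come from different animals. The E18.5 counts by which these genes were chosen are also 1 side of each stage contrast. Such a choice can favour genes that are high at E18.5. In soleus 5 of 8 genes tested were lower and 2 higher, where 76.0% of all genes passed (39.7% lower, 36.3% higher). In gastrocnemius 5 of 8 were lower (82.2% of all genes passed, 44.0% lower and 38.2% higher). In vastus intermedius 6 of 9 were lower and 2 higher (76.1% passed, 39.2% lower and 36.9% higher), and in vastus lateralis 6 of 8 were lower (79.0% passed, 42.6% lower and 36.4% higher). Grem1 is among the 6 lower genes in vastus intermedius and reached that test through its E18.5 counts alone. The shares that passed are near the background. The median log2 fold change of the tested genes was -0.93, -0.91, -0.81 and -1.58 in that order of muscles, against -0.06, -0.12, -0.04 and -0.15 over all genes tested. Scaling by total counts alone moved the median of all genes by -0.69 in soleus, -1.10 in gastrocnemius, -0.76 in vastus intermedius and -1.05 in vastus lateralis, and then 0 of these genes were higher in adults in any muscle, with 6 of 8, 8 of 8, 7 of 9 and 8 of 8 lower.

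Smoc1 fell in every muscle. Its highest adult level was 5.77 CPM in soleus, 1.45 CPM in gastrocnemius, 7.17 CPM in vastus intermedius and 6.65 CPM in vastus lateralis, against lowest E18.5 levels of 12.6, 38.4, 24.9 and 36.3 CPM in the same muscles. No muscle overlapped between the stages. The log2 fold change was -3.12 ± 0.36 in soleus, -5.39 ± 0.18 in gastrocnemius, -4.15 ± 0.59 in vastus intermedius and -3.83 ± 0.29 in vastus lateralis (edgeR, adjusted p of 2.1e-05 or less). With the left-out library kept the vastus intermedius value was -2.15 (edgeR, adjusted p = 0.0721). Leaving out 1 animal at a time gave -5.7 to -3.9 in vastus intermedius and -5.47 to -5.25 in gastrocnemius. Which muscle fell furthest was not tested.

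Bmp4, the ligand with most transcripts per length at E18.5, fell in every muscle. It had 6.42, 8.71 and 13.2 CPM in adult soleus, against 26.4, 27.8 and 33.7 CPM in E18.5 soleus. It had 3.81, 5.21 and 6.92 CPM in adult vastus lateralis, against 19.7, 21.3 and 32.6 CPM in E18.5 vastus lateralis. Adult and E18.5 libraries did not overlap in any of the 4 muscles, and the log2 fold changes were -1.62 ± 0.16 in soleus, -1.41 ± 0.13 in gastrocnemius, -1.72 ± 0.13 in vastus intermedius and -2.17 ± 0.17 in vastus lateralis (edgeR, adjusted p of 1.46e-07 or less). In the GENCODE annotation Bmp4 shares 89 of 2248 exonic bases with Gm15217 on the opposite strand (the counted model had 1994 bases).

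Chrd fell by 1.03, 1.04, 1.13 and 1.83 on the log2 scale in soleus, gastrocnemius, vastus intermedius and vastus lateralis (SE 0.14, 0.13, 0.11 and 0.17; edgeR, adjusted p of 9.62e-06 or less), with no overlap in any muscle. Bmper fell by 1.39 ± 0.16, 2.21 ± 0.16 and 1.98 ± 0.23 in soleus, gastrocnemius and vastus lateralis (edgeR, adjusted p of 1.18e-06 or less). In vastus intermedius the fold was -0.81 ± 0.30 (edgeR, adjusted p = 0.0251), which missed the threshold with the left-out library kept (-0.49), without adult collection A (-0.72), D (-0.77) or E (-0.72) and without E18.5 collection C (-0.62). Nbl1 fell by 0.82 ± 0.13, 0.79 ± 0.15 and 1.33 ± 0.22 in soleus, gastrocnemius and vastus lateralis (edgeR, adjusted p of 0.000157 or less). In vastus intermedius its fold was -0.19 ± 0.21 (edgeR, adjusted p = 0.407), but it passed without adult collection C (-0.42, adjusted p = 0.0371) and with total counts alone (-0.94).

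Bmp6 had 10.5, 13.4 and 18.9 CPM in adult soleus, against 4.06, 7.59 and 8.56 CPM in E18.5 soleus, with no overlap. Its log2 fold change was 1.02 ± 0.20 in soleus (edgeR, adjusted p = 0.000283) and 0.73 ± 0.19 in vastus intermedius (adjusted p = 0.00315). In the fast-biased muscles it was 0.47 ± 0.24 in gastrocnemius (edgeR, adjusted p = 0.0838) and -0.08 ± 0.18 in vastus lateralis (adjusted p = 0.673). The gastrocnemius value passed without E18.5 collection C (0.61) and in 1 fit over the 8 groups (0.51), both with an adjusted p of 0.0302. Bmp2 likewise had 0.77 ± 0.21 in soleus (edgeR, adjusted p = 0.00345) and 0.67 ± 0.22 in vastus intermedius (adjusted p = 0.0147), against 0.21 ± 0.23 and -0.11 ± 0.29 in gastrocnemius and vastus lateralis, which did not pass. With the left-out library kept the Bmp2 value in vastus intermedius was 0.54 (edgeR, adjusted p = 0.0753). These rises were tied to the scaling: with total counts alone the soleus values were 0.36 for Bmp6 and 0.08 for Bmp2, the vastus intermedius values -0.03 and -0.08, the gastrocnemius values -0.62 and -0.88 and the vastus lateralis values -1.12 and -1.16. Whether slow-biased and fast-biased muscles differ in the change with age was not tested. In the GENCODE annotation Bmp6 shares 224 of 3900 exonic bases with Txndc5 on the opposite strand (the counted model had 2410 bases).

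Bmp5 was lower in adult vastus lateralis by -1.03 ± 0.27 (edgeR, adjusted p = 0.00249) and in adult vastus intermedius by -0.62 ± 0.24 (adjusted p = 0.0293). The vastus intermedius call was lost with the left-out library kept (-0.36), without adult collection A (-0.49), D (-0.56) or E (-0.60), without E18.5 collection E (-0.48) and in 1 fit over the 8 groups (-0.64, adjusted p = 0.102). In soleus the fold was -0.79 ± 0.40 (edgeR, adjusted p = 0.0809), which passed without E18.5 collection A (-0.94) or B (-0.96) and in 1 fit over the 8 groups (-0.78), and in gastrocnemius it was -0.14 ± 0.29 (adjusted p = 0.656). Both passed with total counts alone (-1.45, adjusted p = 0.00229 in soleus, and -1.24, adjusted p = 0.000741 in gastrocnemius).

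**Figure D3:**
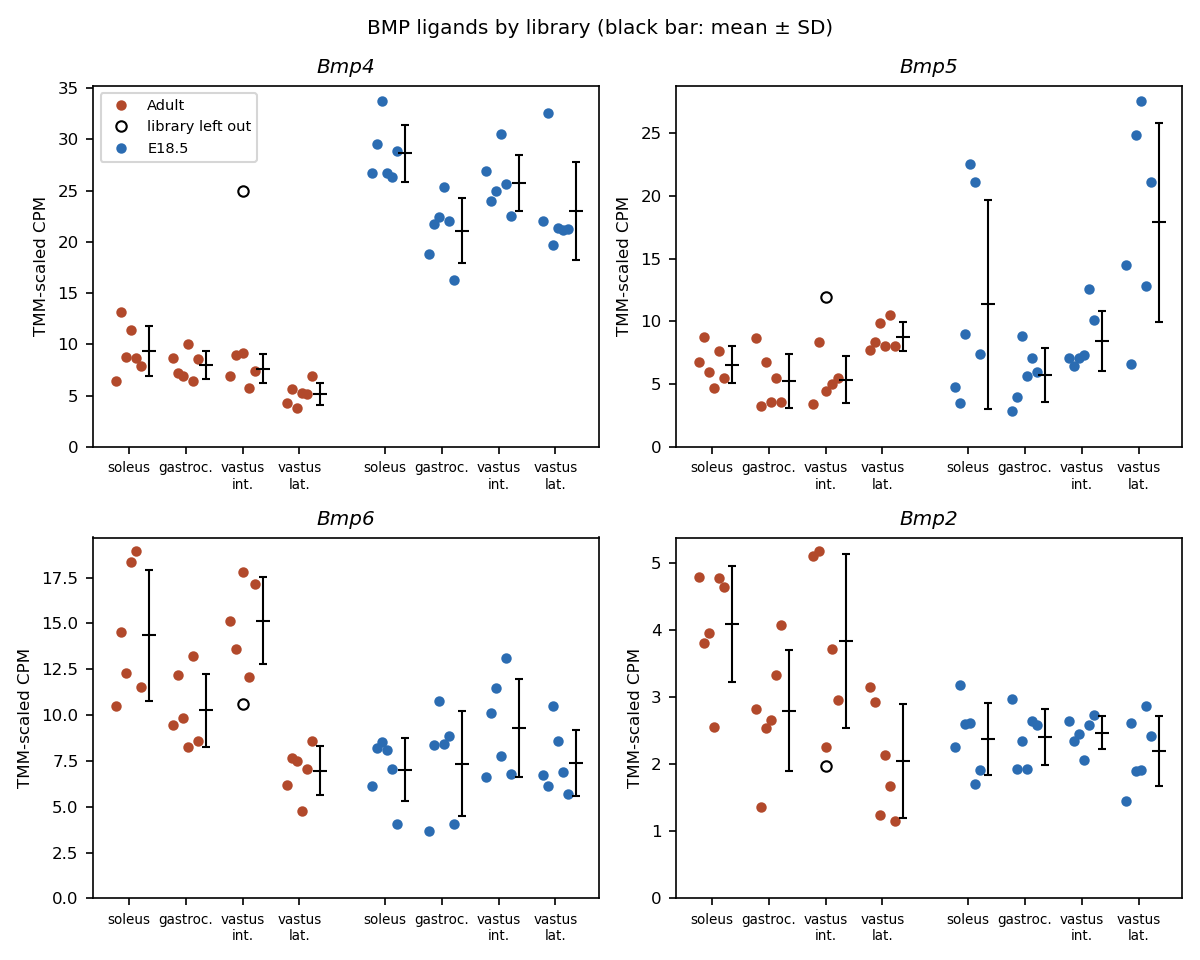
TMM-scaled CPM of the 4 ligands in every library, adult groups (red) left of E18.5 groups (blue), with mean ± SD beside each group and the library left out as an open circle. Adult Bmp4 lies below E18.5 Bmp4 in every muscle, and Bmp6 is highest in adult soleus and adult vastus intermedius.

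Divided by gene length, the ligands changed rank between the stages, and this comparison does not depend on how libraries are scaled. Bmp6 had the most CPM per kb of the 4 ligands in 14 of 23 adult libraries, Bmp5 in 5, all of vastus lateralis, and Bmp4 in 4, whereas Bmp4 led in 23 of 24 E18.5 libraries and Bmp5 in 1. Bmp4 made up 31.4% ± 4.78 of the ligand transcripts per length in adult soleus (SD, n = 6), against 64.3% ± 10.2 in E18.5 soleus (SD, n = 6). In vastus lateralis it was 26.5% ± 4.51 in adults, against 51.7% ± 12.0 at E18.5 (SD, n = 6 each). Bmp6 made up 45.8% ± 5.82 in adult vastus intermedius (SD, n = 5), against 18.2% ± 4.32 in E18.5 vastus intermedius (SD, n = 6). Bmp5 had its largest share in vastus lateralis at both stages, 35.7% ± 4.67 in adults and 30.8% ± 11.4 at E18.5 (SD, n = 6 each). The Bmp4 shares of adults and E18.5 did not overlap in any muscle: the highest adult share was 46.1%, in gastrocnemius, against 55.8% as the lowest there at E18.5.

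**Figure D4:**
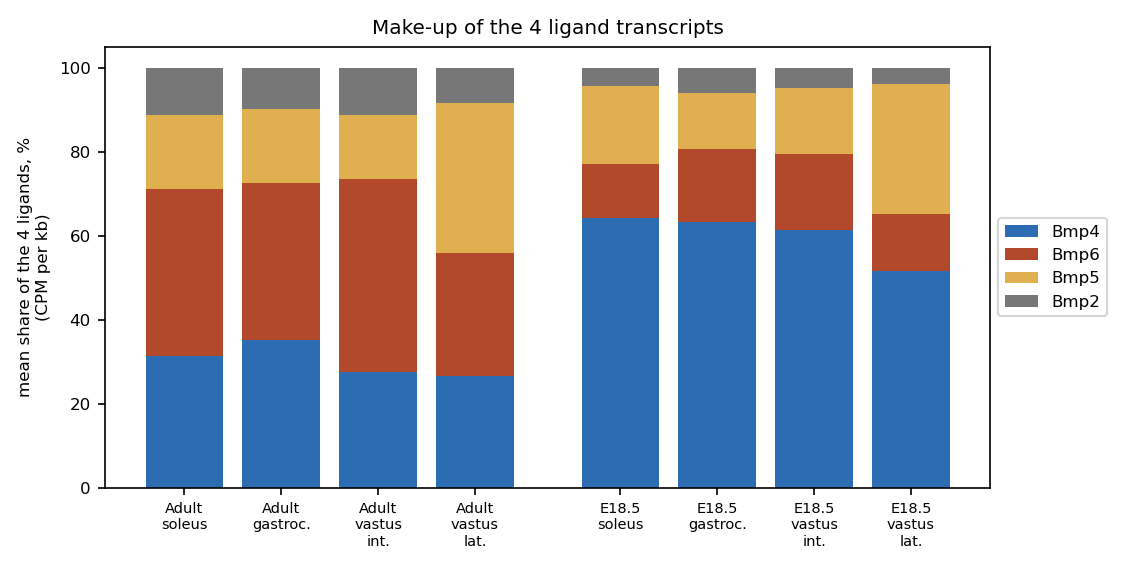
Mean share of Bmp4, Bmp6, Bmp5 and Bmp2 in the summed CPM per kb of the 4 ligands (%), adult groups left of E18.5 groups. Bmp4 takes 51.7% to 64.3% at E18.5 and 26.5% to 35.2% in adults.

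Among the modulators Nbl1 had the most transcripts per length at both stages. Median levels were 11.8 CPM per kb in adults and 21.2 CPM per kb at E18.5 for Nbl1, 0.415 and 11.6 CPM per kb for Smoc1, 1.78 and 5.10 CPM per kb for Bmper and 2.33 and 5.60 CPM per kb for Chrd. Nbl1 made up 74.7% ± 3.77 of the 6 modulators per length in adult soleus, against 63.3% ± 4.99 in E18.5 soleus (SD, n = 6 each). In gastrocnemius it made up 63.1% ± 4.60 in adults, against 35.1% ± 5.08 at E18.5, where Bmper held 27.2% ± 2.51 and Smoc1 27.1% ± 3.54 (SD, n = 6 each).

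Nog was low and differed between collections more than between muscles. In adults the libraries of collections B, D and E had 1.41 to 2.41, 0.815 to 2.76 and 1.05 to 2.12 CPM, whereas those of A, C and F had at most 0.471 CPM. At E18.5 the libraries of collections A and F had 0.889 to 2.40 and 1.26 to 2.02 CPM, and those of B, C, D and E had at most 0.193 CPM. Every library of a high animal thus lay above every library of the others at its stage, in all 4 muscles, except the left-out library of adult collection B, which had 0 Nog counts. Summed counts per adult animal were 87 to 100 in the high and 4 to 12 in the low collections, and at E18.5 they were 206 and 233 against 1 to 15. These animals were told apart by their Nog level itself, so no test was made. Collections whose tags share a date were alike: adult D and E were both high, and E18.5 C, D and E were all low. A difference between animals and a difference between dates therefore cannot be told apart. In the adult fit Nog had a log2 fold change of -0.64 ± 0.78 between slow-biased and fast-biased muscles (edgeR, adjusted p = 0.483), and 0.17 ± 0.78 between thigh and shank (adjusted p = 0.912), which was -0.06 with total counts alone. It did not reach the filter in the stage fits.

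**Figure D5:**
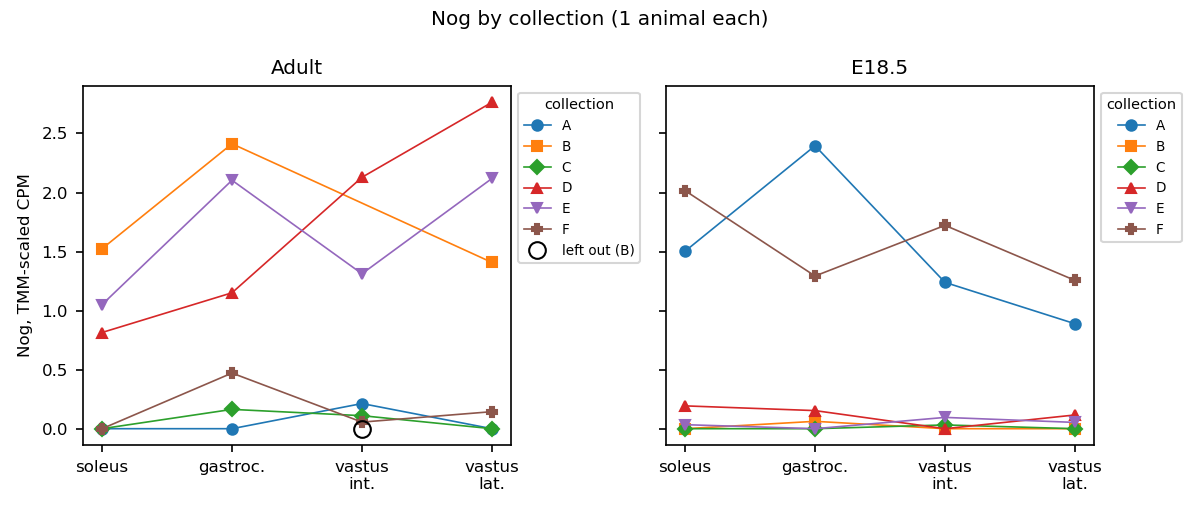
TMM-scaled CPM of Nog by muscle, 1 line per collection (animal), adults on the left and E18.5 on the right; letters do not link the stages. Adult B, D and E and E18.5 A and F stay above 0.8 CPM in each library used, and the other animals stay under 0.5 CPM.

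Grem1 was near the detection limit in adults. Its summed counts were 14 in adult soleus and 101 in E18.5 soleus, which is 4.13-fold lower in adults (95% interval 2.35 to 7.83, exact, counting error only). They were 1 and 102 in adult and E18.5 gastrocnemius (44.9-fold lower in adults, interval 7.88 to 1790) and 1 and 130 in adult and E18.5 vastus intermedius (60-fold, 10.6 to 2390). In vastus lateralis they were 0 and 105, at least 16.2-fold lower in adults with 3 counts over the group as the floor. Grem1 passed the filter of the stage fits only in vastus intermedius, where it was called lower (edgeR, adjusted p = 1.33e-05). It reached that test through its E18.5 counts alone, which favours a lower call, so the call is no separate evidence of a fall.

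The stage contrasts also carried other cell types. Over the 4 muscles 39.2% to 44.0% of all genes tested were lower in adults and 36.3% to 38.2% higher. In each muscle 3 of 5 fibroblast markers were lower in adults and 1 or 2 higher under TMM scaling (0 higher with total counts alone), and the 5 summed to 537 to 1605 CPM over the adult groups, against 4197 to 11780 CPM at E18.5, with none at 0 in a whole group. Satellite cell markers summed to 30.6 to 60.5 CPM in adults, against 104 to 212 CPM at E18.5. Fibre markers summed to 74810 to 234500 CPM in adults, against 10260 to 38870 CPM at E18.5. In each muscle 3 of 4 cartilage markers tested were lower in adults and 1 was higher under TMM scaling, Sox9 in soleus and vastus intermedius and Col9a1 in gastrocnemius and vastus lateralis; with total counts alone 1 was higher in soleus and 0 in the other muscles. Matn1 was at 0 in all adult groups. Their part in the change of the BMP genes was not tested.

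Among the other secreted modulators, from lists written with earlier results of these data known, 10 of 15 tested passed as higher and 2 as lower in slow-biased adult muscle (19 listed), where 35.9% of all genes were higher and 30.1% lower. Their median log2 fold change was 0.62, against 0.08 over all genes, and with total counts alone 13 were higher and 2 lower. Tll2, a tolloid protease, had 3.39 ± 0.81 (log2 ± SE, edgeR, adjusted p = 0.00108), Sostdc1, a BMP antagonist, 2.66 ± 0.56 (adjusted p = 0.000217) and Chrdl2, a chordin-like gene that is also on the satellite cell list, 2.15 ± 0.21 (adjusted p = 2.87e-09). With age, of this list 10 of 16 fell and 4 rose in soleus, 11 of 17 fell and 3 rose in gastrocnemius, 11 of 16 fell and 3 rose in vastus intermedius, and 8 of 14 fell and 3 rose in vastus lateralis. Among all genes 39.7%, 44.0%, 39.2% and 42.6% fell and 36.3%, 38.2%, 36.9% and 36.4% rose in that order of muscles. Of the 19 listed, 15 passed the filter of the adult fit and 18 that of the E18.5 fit. Entry through E18.5 counts alone favours a fall. With total counts alone 12 fell and 3 rose, 13 fell and 3 rose, 11 fell and 2 rose, and 11 fell and 3 rose in the same muscles. Twsg1, which binds BMPs and chordin, had 0.76 in soleus and 0.62 in vastus intermedius under TMM scaling, against 0.06 and -0.14 with total counts alone, and was named after its values were seen. Crim1, a transmembrane BMP-binding protein, rose in all 4 muscles, by 2.28 ± 0.13 in vastus lateralis to 2.81 ± 0.13 in soleus (edgeR, adjusted p of 5.69e-10 or less). Sostdc1 fell in all 4, between -2.53 ± 0.52 in soleus and -5.35 ± 0.71 in gastrocnemius (edgeR, adjusted p of 0.000403 or less).

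Of 11 BMP target genes tested, 7 were higher in slow-biased adult muscle, where 35.9% of all genes were, and 0 were lower, where 30.1% were. The median of the 11 was 0.74 on the log2 scale, against 0.08 over all genes, and with total counts alone 9 were higher. Id2 had 1.13 ± 0.21 (edgeR, adjusted p = 6.42e-05), Id1 0.99 ± 0.19 (adjusted p = 8.65e-05), Atoh8 0.98 ± 0.17 (adjusted p = 1.48e-05) and Id3 0.81 ± 0.15 (adjusted p = 4.93e-05). Id genes encode inhibitors of helix-loop-helix factors, and they also answer to signals other than BMPs. In the same contrast the median was 0.76 for the endothelial markers, 0.97 for the pericyte and smooth muscle markers and -0.70 for the fibre markers. The part of these cell types in the target genes was not tested. Smad6 and Smad7 are on both the target list and the list of Smad and Smurf genes. Against the same shares of all genes, 4 of 12 receptors and coreceptors were higher and 8 lower, with Acvr2a, a type II receptor, at -1.62 ± 0.10 (edgeR, adjusted p = 2.84e-12) and Hjv, the coreceptor hemojuvelin, at -1.03 ± 0.07 (adjusted p = 2.52e-11); with total counts alone the split was 5 higher and 4 lower. Of 7 Smad and Smurf genes 2 were higher and 2 lower, with Smurf1, a ubiquitin ligase for BMP Smads, at 0.88 ± 0.07 (edgeR, adjusted p = 2.23e-10) and Smad4, the common Smad, at -0.57 ± 0.05 (adjusted p = 2.67e-10); with total counts alone 4 were higher and 1 lower. Of 3 other ligands tested 0 passed in edgeR, 0 had an unadjusted p under 0.05 and DESeq2 called 0.

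At E18.5 the same lists scarcely parted slow-biased from fast-biased muscles. Of 11 target genes 1 passed, Runx2, a bone transcription factor that is also on the bone list (1.69 ± 0.36, edgeR, adjusted p = 0.0363). Of 18 other modulators 0 passed in edgeR and 0 in DESeq2, with 6 at an unadjusted p under 0.05, and of 12 receptors 0 passed in edgeR and 0 in DESeq2, with 1 at an unadjusted p under 0.05. Of 6 other ligands 0 passed in edgeR and 0 in DESeq2, with 1 at an unadjusted p under 0.05. Of 8 Smad and Smurf genes 0 passed in edgeR and 1 in DESeq2, and 1 had an unadjusted p under 0.05. Over all genes 0.368% passed. Between soleus and gastrocnemius 1 of the 18 modulators passed (0.286% of all genes did), Cer1, an antagonist of nodal and BMPs, with -2.16 ± 0.48 (edgeR, adjusted p = 0.048).

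With age, all 4 other ligands tested in gastrocnemius fell (12 listed). So did 3 of 4 in soleus, 3 of 4 in vastus intermedius and 3 of 3 in vastus lateralis. Of the 12 only 3 passed the filter of the adult fit, and 6 passed that of the E18.5 fit. A gene that reaches a stage test through its E18.5 counts alone is likely to be called lower, so these counts favour a fall. The shares of all genes that fell were 44.0% in gastrocnemius, 39.7% in soleus, 39.2% in vastus intermedius and 42.6% in vastus lateralis, and 36.3% to 38.2% rose. Bmp7 fell by 3.92 ± 0.32 in soleus (edgeR, adjusted p = 2.12e-08) and by 1.83 ± 0.59 in vastus lateralis (adjusted p = 0.0101). Smad1 fell in all 4 muscles, by 0.90 ± 0.10 in vastus lateralis to 1.23 ± 0.11 in vastus intermedius (edgeR, adjusted p of 8.92e-07 or less). Id2 fell in all 4, by 1.14 ± 0.19 in vastus intermedius to 2.52 ± 0.20 in gastrocnemius (edgeR, adjusted p of 9.5e-05 or less), while Id1 rose by 1.18 ± 0.18 in vastus intermedius (edgeR, adjusted p = 3.45e-05; 0.41 with total counts alone). Bambi, a decoy receptor that is both a BMP target and on the receptor list, fell in all 4 muscles, by 1.25 ± 0.23 in soleus to 1.71 ± 0.20 in gastrocnemius (edgeR, adjusted p of 0.00201 or less). Hjv rose in all 4 muscles, by 1.29 ± 0.12 in vastus intermedius to 2.58 ± 0.10 in vastus lateralis (edgeR, adjusted p of 2.72e-07 or less), and so did Bmpr2, a type II receptor, by 1.03 ± 0.31 in soleus to 2.31 ± 0.25 in vastus lateralis (adjusted p of 0.00738 or less; 0.34 in soleus with total counts alone, adjusted p = 0.303). Beside the same shares of all genes, 4 of the 12 receptors rose and 3 fell in soleus, 4 rose and 4 fell in gastrocnemius, 4 rose and 5 fell in vastus intermedius and 6 rose and 4 fell in vastus lateralis. With total counts alone 1 rose and 8 fell, 2 rose and 9 fell, 2 rose and 8 fell, and 3 rose and 8 fell in that order. Of the 11 target genes 2 rose and 3 fell in soleus, 2 rose and 6 fell in gastrocnemius, 2 rose and 3 fell in vastus intermedius, and 3 rose and 7 fell in vastus lateralis. With total counts alone 0 rose and 7 fell, 0 rose and 9 fell, 1 rose and 8 fell, and 0 rose and 8 fell in the same muscles.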

How the data were processed

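RNA-seq libraries came from 4 muscles of 6 adult and 6 E18.5 animals, 1 library per animal and muscle. Per the labels' protocols, RNA had a RIN above 7 and libraries were built with the Kapa mRNA HyperPrep kit from random-primed cDNA. Tools listed, per the submitters' processing notes, include STAR 2.7.11 (aligner), Subread 2.0.6 with featureCounts (counter), Trimmomatic 0.39.0, FastQC 0.11.5 and, for the authors' comparisons, DESeq2 1.44.0; the build was mm10. Which annotation and strand setting were used: not given in the sources used here. The authors deposited raw counts per gene. Their deposited comparison tables hold log2 fold changes and were used here for gene symbols (18705 genes; RefSeq GRCm38.p6 named 6576 more and 1898 had none).

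Counts were tested with edgeR 4.0.16 in R 4.3.3 (TMM factors, filterByExpr, quasi-likelihood F test, Benjamini-Hochberg adjustment over all genes tested, threshold 0.05). There was 1 fit over the adult muscles, 1 over the E18.5 muscles and 1 per muscle for stage, and SE is the log2 fold change divided by the root of F. Alternatives were DESeq2 1.42.0, relative log expression and upper-quartile factors, no filter, all libraries kept, a replicate block, 1 fit over the 8 groups and leaving out each animal. Scaling by total counts alone was chosen after seeing the data. The fits were tested on simulated counts. The genes and lists were chosen with earlier results of these data known. Genes named are the 10 genes, up to 4 genes per pathway list and comparison with the largest change past the threshold, and the 3 genes nearest in Pearson's r to each of 4 modulators.

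The count columns carry collection tags (a date and, where dates repeat, a further mark), not animal numbers. Libraries of a stage that share a tag (collections A to F) were taken as 1 animal, since the labels say that the 4 muscles came from 6 mice per stage. Deviations from the group means correlated within a collection (mean r 0.14 for E18.5, 0.0875 for adults). Across collections the mean r was -0.0281 and -0.0177. These values follow from the values within collections once groups are centred on their means, so they are no separate evidence. Intervals and floors cover counting error only.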

Additional observations from a re-analysis of the deposited data

Results flagged for a closer look

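Within groups, 4 of the 79 sets of 4 or more libraries had 1 library far from the rest, where chance gives about 1 in 20. Smoc1 had 7.171 CPM in the adult vastus intermedius library of collection C, against 0.4384 to 0.9583 CPM in the other 4. Bmp4 had 32.58 CPM in the E18.5 vastus lateralis library of collection B, against 19.66 to 22.06 CPM in the other 5. Grem1 had 0.06187 CPM in the adult gastrocnemius library of collection B and 0.06263 CPM in the adult vastus intermedius library of collection D, each from 1 count, and 0 in the other libraries of those groups.

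The adult vastus intermedius library of collection B, used in no comparison, exceeded the other 5 for 6 genes. It held 14.46 CPM of Bmper (other 5 libraries 4.419 to 8.164), 16.27 CPM of Chrd (7.347 to 10.37) and 39.04 CPM of Smoc1 (0.4384 to 7.171). It held 24.93 CPM of Bmp4 (5.759 to 9.144), 11.98 CPM of Bmp5 (3.407 to 8.384) and 0.07731 CPM of Grem1 (0 to 0.06263). It was below the other 5 for Nog, Bmp2 and Bmp6.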

How the results depend on the processing

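Relative log expression factors, upper-quartile factors and no filter changed no direction and no call of the genes already tested in the adult and stage comparisons. With no filter more of the genes studied here entered the stage tests. Those called were then 8 in soleus (7 with the filter), 6 in gastrocnemius (5) and 7 in vastus lateralis (6). Their E18.5 muscle values were not tested and have no call. With total counts alone 7 values changed sign: Bmp5 in adult slow-biased against fast-biased muscle (0.18), Bmper in the adult thigh pair (0.16), Nog between adult thigh and shank (-0.06), and, for stage, Bmp2 and Bmp6 in gastrocnemius (-0.88 and -0.62) and in vastus intermedius (-0.08 and -0.03). Calls among the genes were then 7 in the adult shank pair and 8 for stage in gastrocnemius, and E18.5 genes called were 3 in the thigh pair (5 with TMM) and 7061 between thigh and shank (3909 with TMM). With the left-out library kept, Bmper (0.20) and Smoc1 (1.35) changed sign in the adult thigh pair and Smoc1 in the adult difference of pairs (-0.15). The adult thigh to shank comparison then called 1118 genes (2736 without it) and 0 of the 9, the difference of pairs 214 genes (1159 without it), and stage in vastus intermedius 4 of the genes.

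DESeq2 called 1 gene of the 9 in the adult difference of pairs, and at E18.5 265 genes between slow-biased and fast-biased muscle, 163 in the shank pair, 21 in the thigh pair and 31 in the difference of pairs, against 58, 45, 5 and 0 in edgeR (731 at an unadjusted p under 0.05 in the last). With the replicate block, Smoc1 in adult slow-biased against fast-biased muscle was -0.08 and Nog in the adult thigh pair 0.24, both with a changed sign, 1 of the 9 was called in the difference of pairs, and E18.5 calls were 212, 101 and 2 genes for slow-biased against fast-biased, the shank pair and the difference of pairs; besides Bmp5 in the difference of pairs and Bmper between thigh and shank, the block changed no call of the genes.

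Leaving out 1 animal at a time gave -0.77 to 0.50 for adult Smoc1 (slow-biased against fast-biased), -0.45 to 0.63 for Nog between thigh and shank, -0.31 to 0.11 for Nbl1 in the difference of pairs, and for stage -0.35 to 0.02 for Bmp5 in gastrocnemius and -0.27 to 0.02 for Bmp2 and -0.17 to 0.02 for Bmp6 in vastus lateralis. Adult genes called ranged from 1477 to 2745 between thigh and shank (1 to 3 of the 9) and from 540 to 1064 in the difference of pairs (0 to 2 of the 9). E18.5 genes called ranged from 10 to 237 for slow-biased against fast-biased, 9 to 34 in the shank pair, 0 to 100 in the thigh pair and 0 to 1 in the difference of pairs. The cause of these changes was not tested. Nog and Grem1 had too few counts for a stage test in most muscles, and bulk libraries do not say which cells hold a transcript.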

Other observations

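Summed per kb, the 4 ligands reached 14.9 ± 2.36 CPM per kb in adult soleus, against 22.7 ± 3.32 CPM per kb in E18.5 soleus (SD, n = 6 each). In vastus lateralis the sums were 9.77 ± 0.843 CPM per kb in adults, against 22.6 ± 2.47 CPM per kb at E18.5 (SD, n = 6 each). Over all muscles the Bmp6 share of the ligands per kb lay between 22.9% and 50.5% in adults, against 8.49% and 22.6% at E18.5, so the stages did not overlap.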
